A study of Homo sapiens with 6 samples.

Results

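The genes described here are the repressors of the mammalian circadian clock and the output factors closest to it: BHLHE40 and BHLHE41, the period genes PER1, PER2 and PER3, the cryptochromes CRY1 and CRY2, the nuclear receptors NR1D1 and NR1D2, and DBP. They were chosen by gene symbol, and 10 of 10 were found among the 59653 genes of the count table. All 10 passed the filter on low counts (5 or more normalized counts in 3 or more of the libraries), as did 19008 genes in all. The ovarian carcinoma line SK-OV3, of human origin and labelled wildtype, received either siRNAs against the lncRNA PVT1 (siPVT1, n = 3 libraries) or a non-targeting control (siControl, n = 3 libraries), and its RNA was sequenced 48 h later. Both groups were transfected, and all libraries come from this single line. The comparison asks how the RNA of these genes differed once the siRNAs had lowered PVT1, which they did in part.

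In the molecular clock, CLOCK or NPAS2 pairs with ARNTL (BMAL1) and activates genes through E-box elements in their promoters. PER and CRY proteins accumulate, enter the nucleus and repress this activator, which closes the main feedback loop. NR1D1 and NR1D2 (REV-ERB alpha and beta) repress ARNTL in a second loop that ROR receptors oppose, and BHLHE40 and BHLHE41 (DEC1 and DEC2) are bHLH-Orange repressors that bind E-boxes directly. DBP is an activator of the PAR bZIP family, whose binding site is the D-box. BHLHE40 and BHLHE41 are also known as genes that respond to hypoxia, and PER1 as one that responds quickly to glucocorticoid and cAMP signals.

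The total count per library was between 28383171 and 35059576, and was highest in siPVT1 replicate 3. PVT1, the target of the siRNAs, averaged 3588.5 normalized counts in siControl (SD 436.6, n = 3) but 2174.4 in siPVT1 (SD 153.8, n = 3), with each siPVT1 library below each siControl library and a log2 fold change of −0.72 (SE 0.0967, edgeR adjusted p = 0.000342). The fixed epithelial markers KRT7, KRT8, KRT18 and ERBB2 each had at least 805 counts in every library, whereas EPCAM had between 44 and 126 and MUC16 between 19 and 677. Of these 8 epithelial markers with PAX8 and WT1, 3 rose and 3 fell by adjusted p. Among markers of leukocytes, endothelium and fibroblasts, CD3E was at 0 in all 6 libraries, and PTPRC and DCN had at most 2 counts. CD68 did not pass the test (edgeR adjusted p = 0.111). A further 3 rose in siPVT1: CDH5 by 2.22, COL1A1 by 2.15 and PECAM1 by 2.99 on the log2 scale, and CDH5 already had 1984 to 2164 counts in siControl. Summed over these markers, the level was 2699.4 to 2752.7 normalized counts in siControl and 9620.8 to 12201.8 in siPVT1. Their part in the results below was not tested. The labels do not say whether the 3 libraries of a group came from separate cultures, so the p-values measure the spread between these libraries only. A smaller number of cells expressing a gene and less of its RNA per cell cannot be told apart in bulk RNA.

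Stretches of 9 promoters are shown because they hold letters that match types of element through which the clock is known to act. They are RefSeq sequences of GRCh38.p14, read 5′ to 3′ on the strand of the gene, all upstream of a RefSeq transcription start, and the capitals mark the element. The elements were chosen after the windows had been seen. For 4 genes the element is the E-box CACGTG, for PER2, CRY1, CRY2 and NR1D1 the E-box variant CACGTT on either strand, and for PER3 a D-box, searched as TTATGNAA or TTANGTAA. The PER2 stretch is short because it lies in an annotated untranslated region. The stretches of PER1, PER2, CRY2 and NR1D2 lie inside the spans of these genes given below, upstream of a start within the gene.
BHLHE40, chr3:4979187-4979246, plus strand: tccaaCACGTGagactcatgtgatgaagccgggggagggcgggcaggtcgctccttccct
BHLHE41, chr12:26125053-26125112, minus strand: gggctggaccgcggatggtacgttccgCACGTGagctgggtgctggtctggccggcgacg
PER1, chr17:8152545-8152604, minus strand: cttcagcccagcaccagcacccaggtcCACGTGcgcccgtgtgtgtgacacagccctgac
NR1D2, chr3:23945956-23946031, plus strand: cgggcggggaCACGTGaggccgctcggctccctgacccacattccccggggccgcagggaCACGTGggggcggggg
PER2, chr2:238288790-238288819, minus strand: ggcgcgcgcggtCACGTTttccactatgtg
CRY1, chr12:107093606-107093665, minus strand: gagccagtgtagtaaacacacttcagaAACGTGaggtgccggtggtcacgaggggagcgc
CRY2, chr11:45847260-45847319, plus strand: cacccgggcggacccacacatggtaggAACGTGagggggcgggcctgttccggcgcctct
NR1D1, chr17:40100725-40100784, minus strand: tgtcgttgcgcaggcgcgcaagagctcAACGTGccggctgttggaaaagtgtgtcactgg
PER3, chr1:7784088-7784147, plus strand: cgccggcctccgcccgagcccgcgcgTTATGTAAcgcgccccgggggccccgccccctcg

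The RefSeq table held 13 windows for the 10 genes, each from 250 bases before to 50 after a start, and 35116 windows in all. CACGTG was present for 4 of the 10 genes, in 4 of the 13 windows beside 7.26% of all windows, with a pair of copies in NR1D2. The variant CACGTT was present for 4 genes, in 4 of the 13 windows beside 5.34% of all windows. The D-box was present for 4 genes (PER1, PER2, PER3 and NR1D2), in 4 of the 13 windows beside 4.53% of all windows. The ROR element TAGGTCA was found for CRY2 alone, in 1 of the 13 windows beside 1.85% of all windows. ACGTG, the core that hypoxia-inducible factors bind, overlaps the E-box and its variant. It was found for 8 genes, in 9 of the 13 windows beside 21.4% of all windows. BHLHE40 held this core at 3 places, of which 1 is the E-box. DBP held none of these letters in its window. A match is a description of the letters and not a measured site.

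In siPVT1, BHLHE40 rose 4.81-fold, both cryptochromes rose by less than 2-fold, and PER2 and NR1D2 fell. By adjusted p alone (under 0.05), 3 of the 10 genes were higher (BHLHE40, CRY1 and CRY2), where 29.5% of all tested genes were, and 2 were lower (PER2 and NR1D2), where 28.4% of all tested genes were. With the second threshold of the study, a log2 fold change of at least 1 in size, BHLHE40 was the 1 gene called higher, beside 11.8% of all tested genes. None of the 10 was called lower, beside 9.64% of all tested genes. Scaling by the total count, which moved the median of all genes to −0.148, changed the split over all genes from 2248 higher and 1833 lower to 1835 higher and 2355 lower and turned the direction of none of the 10 genes. The lowest log2 fold change among the 10 was −0.65, so none reached the fold threshold for a lower call. At an unadjusted p under 0.05, 2 of them were lower, and DESeq2 called none lower past both thresholds. In 5 of the 10 genes the libraries of the groups did not overlap, which held for 65.6% of all tested genes. The shares of the 10 genes were near those of all genes. Their median log2 fold change was 0.28 beside 0.001 for all tested genes. This median is the midpoint between PER3 (−0.078) and CRY1 (0.65), and none of the 10 lay between these values.

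**Figure D1:**
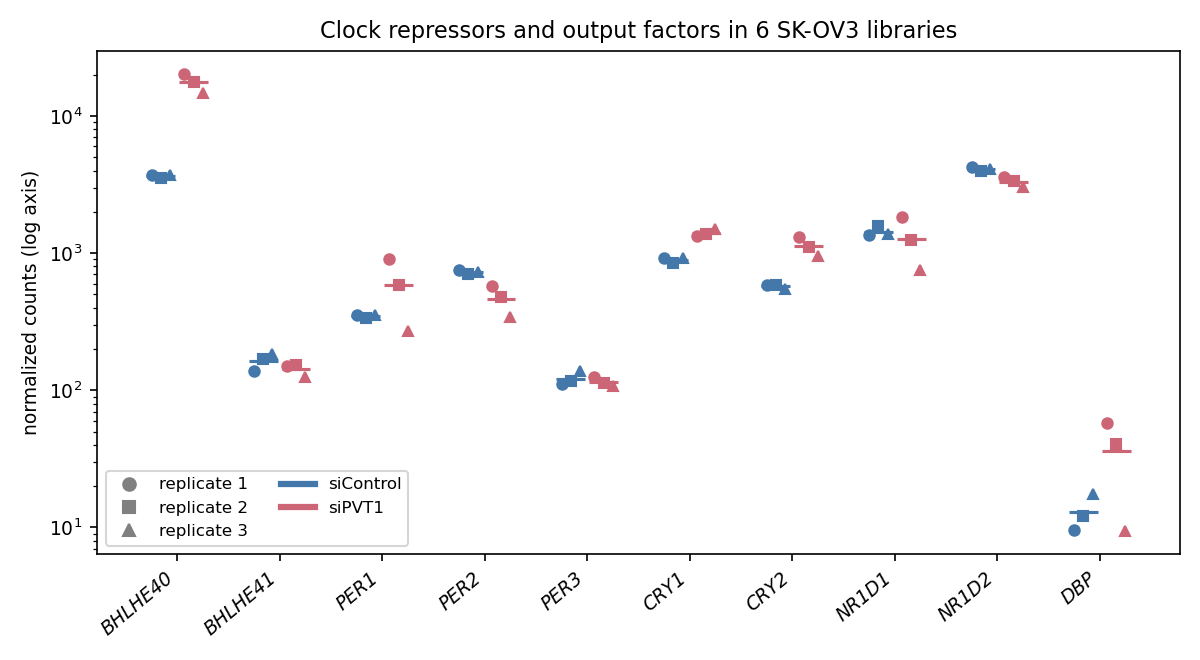
Normalized counts (log axis) of the 10 genes in each library; each point is a library, its shape the replicate number, and the lines are group means (n = 3). BHLHE40 was between 14692.9 and 20385.7 in siPVT1 against 3538.9 to 3716.8 in siControl, while PER1, NR1D1 and DBP were spread widely in siPVT1 and overlapped siControl.

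BHLHE40 (ENSG00000134107) spans 4979437 to 4985323 of chromosome 3 (GRCh38, plus strand). In the order of the replicate numbers, which is kept throughout, siControl had 3716.8, 3538.9 and 3714.3 normalized counts and siPVT1 had 20385.7, 17731.1 and 14692.9. Every siPVT1 library lay well above every siControl library, and siPVT1 replicate 3 was the lowest of its group. The log2 fold change was 2.27 (SE 0.115, edgeR adjusted p = 2.82e-06), a 4.81-fold rise. BHLHE40-AS1, a lncRNA on the opposite strand that shares 451 exonic bases with BHLHE40, had between 24 and 34 counts in every library and a log2 fold change of −0.11 (SE 0.208, edgeR adjusted p = 0.691).

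BHLHE41 (ENSG00000123095; chromosome 12, from 26120030 to 26125037, minus strand) is the closest relative of BHLHE40. It had 139, 168.7 and 183.8 normalized counts in siControl and 151.5, 153 and 125.9 in siPVT1. The groups overlapped, and the log2 fold change of −0.19 (SE 0.143) did not pass the test (edgeR adjusted p = 0.276). It was −0.305 without siControl replicate 1, −0.11 without siControl replicate 3, −0.12 without siPVT1 replicate 3 and −0.345 with total count scaling, and passed in none of these. Within a library BHLHE41 gave 0.0374, 0.0477 and 0.0495 counts per count of BHLHE40 in siControl and 0.00743, 0.00863 and 0.00857 in siPVT1. This log2 ratio, which does not depend on how libraries are scaled, averaged −4.49 in siControl (SD 0.219, n = 3) but −6.93 in siPVT1 (SD 0.122, n = 3), a difference of −2.44. All siPVT1 libraries were below all siControl libraries (exact permutation test, two-sided, p = 0.1, which no arrangement of 3 against 3 can go below, and 0.2 after Benjamini-Hochberg adjustment over 4 ratios). BHLHE40, the denominator, separated the groups by itself, so this ratio is not a second result.

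The genes most like BHLHE40 were sought by the root mean square difference, over the 6 libraries, of log2 normalized counts centred on the siControl mean, among the other 12037 tested genes with a mean of at least 100. The nearest were PARD6B, a cell polarity protein (difference 0.030), P4HA1, a subunit of collagen prolyl 4-hydroxylase (0.034), and CDH5, the cadherin of endothelial junctions (0.056). Their log2 fold changes were 2.25, 2.25 and 2.22. They were selected for this likeness over the same libraries, which fixes a fold change near that of BHLHE40.

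Of the period genes, PER2 passed the test and PER1 and PER3 did not. PER2 (ENSG00000132326; chromosome 2, from 238244044 to 238290102, minus strand), a PAS-domain protein that forms the repressor complex with the cryptochromes, had 753.3, 708.2 and 727.9 normalized counts in siControl and 578, 477.5 and 342 in siPVT1. All siPVT1 libraries were below all siControl libraries, and the log2 fold change was −0.65 (SE 0.166, edgeR adjusted p = 0.00996). PER3 (ENSG00000049246; chromosome 1, from 7784291 to 7845177, plus strand) ranged from 111.4 to 137.6 in siControl and from 108.1 to 124.7 in siPVT1. Its groups overlapped, and its log2 fold change was −0.078 (SE 0.134, edgeR adjusted p = 0.646).

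PER1 (ENSG00000179094; chromosome 17, from 8140472 to 8156506, minus strand) had 357.1, 336.4 and 352.9 normalized counts in siControl and 909.8, 583.5 and 272.5 in siPVT1. Of the siPVT1 libraries, replicates 1 and 2 lay above siControl and replicate 3 below it. The log2 fold change was 0.75 (SE 0.355) and did not pass the test (edgeR adjusted p = 0.104). Without siPVT1 replicate 3 it was 1.08 (edgeR adjusted p = 0.000186), and without siPVT1 replicate 1 it was 0.27 (edgeR adjusted p = 0.42). With no filter on low counts and all libraries kept, the log2 fold change of 0.75 passed the test (edgeR adjusted p = 0.0215). Whether PER1 passed thus turned on siPVT1 replicate 3 and on the filter. PER2 gave 2.11, 2.11 and 2.06 counts per count of PER1 in siControl and 0.635, 0.818 and 1.26 in siPVT1. The log2 ratio fell from 1.06 ± 0.018 (SD, n = 3) to −0.20 ± 0.497 (SD, n = 3), with no overlap between groups (two-sided exact permutation test, p = 0.1, adjusted 0.2). PER2, the numerator, separated the groups by itself.

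The cryptochromes, flavoproteins that bind PER proteins and repress CLOCK and ARNTL directly, both rose. CRY1 (ENSG00000008405; chromosome 12, from 106991364 to 107093549, minus strand) had 919, 842.5 and 925.6 normalized counts in siControl and 1326.3, 1374.5 and 1505.3 in siPVT1, a log2 fold change of 0.65 (SE 0.0764, edgeR adjusted p = 0.000173). CRY2 (ENSG00000121671; chromosome 11, from 45847118 to 45883248, plus strand) had 587.6, 582.9 and 551.5 in siControl and 1309.6, 1102.5 and 950.9 in siPVT1, a log2 fold change of 0.96 (SE 0.116, edgeR adjusted p = 0.000195). For both genes all siPVT1 libraries lay above all siControl libraries. CRY2 was just under the 2-fold threshold, and without siPVT1 replicate 3 it was past it, at 1.05. CRY1 was the one gene of the family that was highest in siPVT1 replicate 3. The log2 ratio of CRY2 to CRY1 averaged −0.64 in siControl (SD 0.108, n = 3) and −0.33 in siPVT1 (SD 0.322, n = 3), and the groups overlapped (two-sided exact permutation test, p = 0.3, adjusted 0.4). The difference was 0.31, and 0.15 without siPVT1 replicate 1 and 0.47 without siPVT1 replicate 3.

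**Figure D2:**
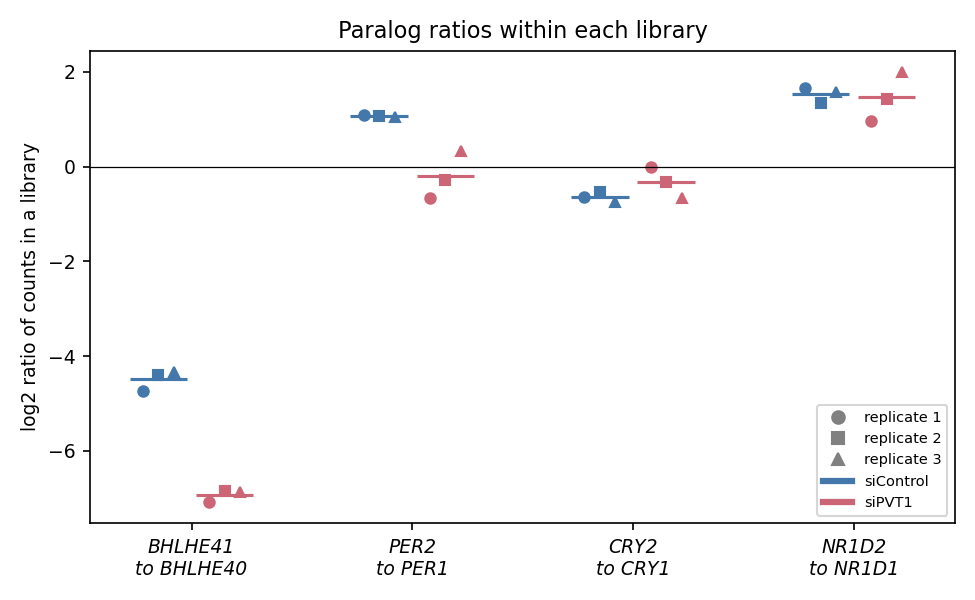
Log2 ratio of the counts of paralogs within each library; points are libraries, shapes replicate numbers and lines group means (n = 3). The groups were apart for BHLHE41 to BHLHE40 (difference −2.44) and PER2 to PER1 (difference −1.27) and overlapped for the cryptochromes and the NR1D receptors.

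NR1D2 (ENSG00000174738; chromosome 3, from 23945286 to 23980617, plus strand), a heme-binding nuclear receptor, had 4265.3, 3999.6 and 4121.7 normalized counts in siControl and 3569.1, 3346.7 and 3015.2 in siPVT1. The fall was small, with a log2 fold change of −0.32 (SE 0.0735, edgeR adjusted p = 0.00603), and no siPVT1 library reached the lowest siControl library. NR1D1 (ENSG00000126368; chromosome 17, from 40092793 to 40100589, minus strand) had 1348.4, 1569.9 and 1378.2 in siControl and 1825.2, 1243.4 and 759.2 in siPVT1. The siPVT1 libraries lay on both sides of siControl, and the log2 fold change of −0.17 (SE 0.263) did not pass the test (edgeR adjusted p = 0.611). Without siPVT1 replicate 1 it was −0.54 (edgeR adjusted p = 0.0424), and without siPVT1 replicate 3 its sign changed, at 0.082 (edgeR adjusted p = 0.628). THRA, the thyroid hormone receptor gene on the opposite strand, shares 473 of the 2630 exonic bases of NR1D1 and had a log2 fold change of 0.56 (SE 0.0912, edgeR adjusted p = 0.000993). The strand setting of the counting is not given in the sources used here, and the part of THRA reads in the counts of NR1D1 was not tested. The log2 ratio of NR1D2 to NR1D1 averaged 1.53 in siControl (SD 0.162, n = 3) and 1.46 in siPVT1 (SD 0.512, n = 3), and the groups overlapped (two-sided exact permutation test, p = 0.9, adjusted 0.9).

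DBP (ENSG00000105516; chromosome 19, from 48630030 to 48637379, minus strand), the output factor, was scarce. Its raw counts were 10, 12 and 19 in siControl and 52, 37 and 10 in siPVT1, so that replicates 1 and 2 of siPVT1 were above siControl and replicate 3 was not. The log2 fold change of 1.43 (SE 0.595) passed the fold threshold and not the test (edgeR adjusted p = 0.0701). It passed both with DESeq2 (adjusted p = 0.0479), with no filter on low counts (edgeR adjusted p = 0.0223) and without siPVT1 replicate 3 (log2 fold change 1.88, edgeR adjusted p = 0.000616). Without siPVT1 replicate 1 it was 0.88 (edgeR adjusted p = 0.242). SPHK2, which shares 661 exonic bases with DBP on the opposite strand, fell by 1.05 on the log2 scale (SE 0.111, edgeR adjusted p = 9.5e-05).

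The spread among the siPVT1 libraries was itself wide for some of these genes. The highest siPVT1 library was 3.34-fold above the lowest for PER1, 2.40-fold for NR1D1 and 1.69-fold for PER2. In siControl these genes ranged 1.06-fold, 1.16-fold and 1.06-fold. Among 12038 tested genes with a mean of at least 100 normalized counts, the median of this range was 1.19-fold in siPVT1 and 1.09-fold in siControl, and 0.208% of the genes ranged more widely in siPVT1 than PER1 and 0.698% more widely than NR1D1. CRY1, PER3 and NR1D2, with 1.14-fold, 1.15-fold and 1.18-fold, were below the median. Of the 9 clock genes with such a mean, 7 were highest in siPVT1 replicate 1 and lowest in siPVT1 replicate 3, as were 30.3% of the 12038 genes, and DBP had the same order. The total count was highest in siPVT1 replicate 3, and the part of depth in this order was not tested.

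**Figure D3:**
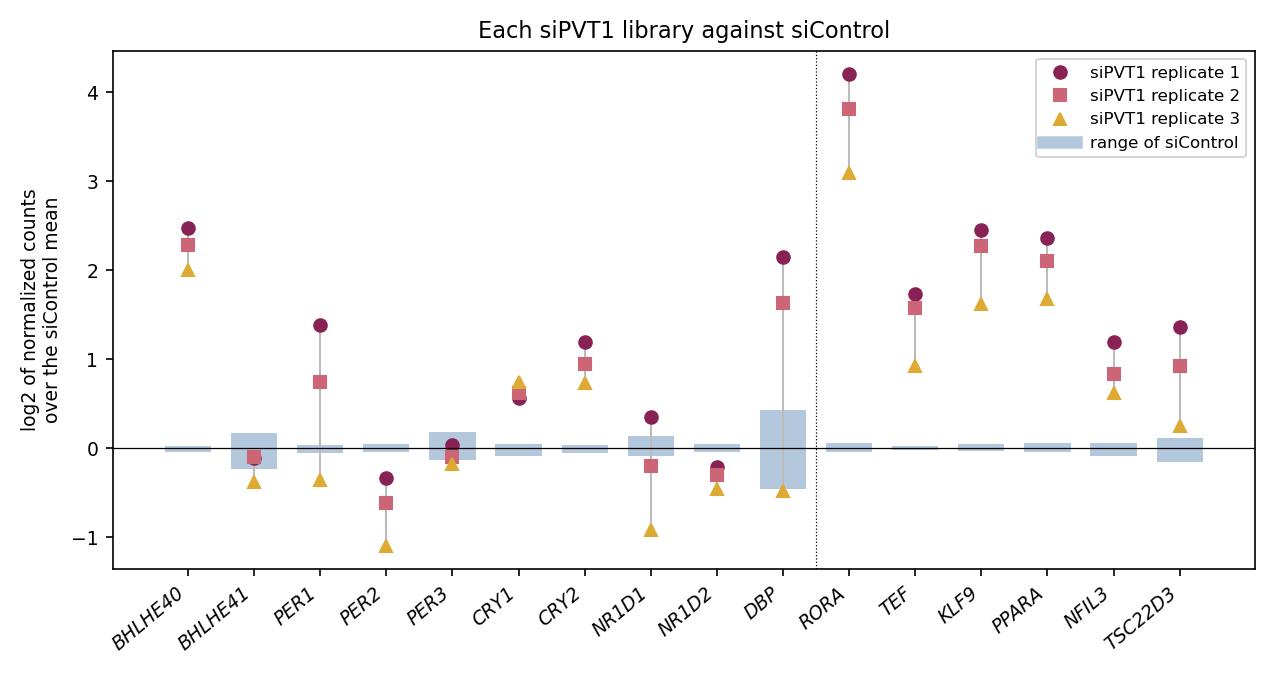
Log2 of the normalized counts of each siPVT1 library over the siControl mean, for the 10 genes (left of the dotted line) and 6 other clock genes, chosen after their values were seen; blue boxes span the siControl libraries. PER1 ran from 1.38 in siPVT1 replicate 1 to −0.36 in replicate 3, NR1D1 from 0.35 to −0.92 and RORA from 4.20 to 3.10.

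Levels of different genes were compared per kilobase of the MANE Select transcript in GENCODE v44. In siControl, BHLHE40 had the highest level, 1160.1 ± 32.36 normalized counts per kilobase (SD, n = 3), followed by NR1D2 with 789.3 ± 25.43 and NR1D1 with 544.6 ± 45.71. CRY1 (299.9 ± 15.45), CRY2 (138.9 ± 4.754), PER2 (114.4 ± 3.542) and PER1 (74.59 ± 2.338) came next. BHLHE41 (43.78 ± 6.087), PER3 (19.13 ± 2.194) and DBP (6.021 ± 1.888) were the lowest, and no neighbours in this order overlapped in siControl. In siPVT1, BHLHE40 reached 5584.8 ± 903.7 per kilobase. NR1D2 (632.8 ± 53.28), NR1D1 (485.1 ± 202.9) and CRY1 (469.4 ± 31) followed, and NR1D1 overlapped both of these and CRY2 (271.4 ± 43.59). PER1 (125.9 ± 68.16) and PER2 (73.01 ± 18.56) exchanged places but overlapped, while BHLHE41 was at 38.32 ± 4.062 and PER3 (18.14 ± 1.333) and DBP (16.55 ± 11.32) also overlapped. The order of the other genes was as in siControl.

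The other genes of the pathway were described from lists written for it, with the same test over all genes. The counts of each list stand beside 29.5% of all tested genes higher and 28.4% lower by adjusted p, and 11.8% and 9.64% past both thresholds. Among 7 clock activators, 6 were tested, and 4 rose and 1 fell by adjusted p, of which RORA and RORB were past both thresholds. RORA, the receptor that competes with NR1D1 and NR1D2 for the same element, had 178, 166 and 194 raw counts in siControl and 2841, 2218 and 1565 in siPVT1. Its log2 fold change of 3.77 (SE 0.271, edgeR adjusted p = 1.37e-05) was the largest rise in these lists. RORB, a related receptor, had 9 to 15 raw counts in siControl and 26 to 32 in siPVT1 (log2 fold change 1.46, SE 0.303, edgeR adjusted p = 0.00362). The core activators changed by less than 2-fold, and CLOCK, at 0.012 (SE 0.0587), did not pass. ARNTL rose by 0.28 (SE 0.0884, edgeR adjusted p = 0.0262) and NPAS2 by 0.33 (SE 0.0878, edgeR adjusted p = 0.0118). ARNTL2 fell by 0.50 (SE 0.0637, edgeR adjusted p = 0.000273), with all siPVT1 libraries below all siControl libraries. The median of the list was 0.30.

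Of 6 genes listed as PAR bZIP factors and other clock repressors, 5 were tested, 2 rose and 2 fell. TEF, a PAR bZIP activator related to DBP, rose by 1.45 (SE 0.189, edgeR adjusted p = 0.000295), from 367.5 ± 5.863 to 1007.0 ± 274 normalized counts (SD, n = 3). HLF, the third member of that family, had 17, 6 and 15 raw counts in siControl and 0 in each siPVT1 library, which is at least 3.83-fold lower against a floor of 3 counts per library. NFIL3, a bZIP repressor of the D-box, rose by 0.90 (SE 0.14), and TIMELESS, which acts at replication forks and has been linked to the clock, fell by 0.82 (SE 0.175). Of the factors of the D-box, TEF and NFIL3 were higher and DBP was not separated between groups. HLF, among the genes counted as fallen, passed the filter on low counts through siControl alone, where it was higher. Its fall is therefore a description and no support for a difference in direction. The list's median was 0.24.

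Of 12 clock kinases, ubiquitin ligases and deubiquitinases, 11 were tested, 3 rose, 4 fell and none was past both thresholds. CSNK1E, a kinase of PER proteins, rose by 0.46 (SE 0.133) and CSNK1D, its close relative, by 0.26 (SE 0.0707), whereas CSNK1A1 fell by 0.49 (SE 0.0531). The HES and HEY repressors, relatives of BHLHE40 within the bHLH-Orange group, were tested in 8 of 11 cases. HES4 and HES6 rose, and HES1, HEY1 and HEY2 fell. Of these HEY2 was past both thresholds, on 6, 7 and 13 raw counts in siControl against 1, 2 and 2 in siPVT1. HEY2 passed the filter on low counts through siControl alone, where it was higher, so its call is a description only. The medians of these lists were −0.11 and 0.019.

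Of 9 genes known as clock outputs, all were tested, and 5 rose and 3 fell by adjusted p, beside 29.5% and 28.4% of all tested genes, with a median of 0.66. The list was chosen with earlier results known, and its counts are a description. KLF9 and PPARA were past both thresholds as higher. KLF9, a Krüppel-like repressor, rose by 2.15 (SE 0.197, edgeR adjusted p = 4.48e-05), and PPARA, a nuclear receptor of fatty acid oxidation, by 2.07 (SE 0.158, edgeR adjusted p = 1.79e-05). RGS16, a regulator of G-protein signalling, was past both as lower, on 21, 13 and 24 raw counts in siControl and 2, 3 and 0 in siPVT1. RGS16 passed the filter on low counts through siControl alone, where it was higher, so its call is a description only. WEE1, the kinase that holds back mitotic entry, rose by 0.66 (SE 0.101), NAMPT, the enzyme of NAD salvage, by 0.69 (SE 0.102), and TSC22D3, a glucocorticoid-induced gene, by 0.92 (SE 0.241). KLF10 fell by 0.75 (SE 0.0728) and ALAS1, which starts heme synthesis, by 0.31 (SE 0.0651). Over all the pathway lists, 29 genes had a mean of at least 100 normalized counts. Of these, 16 were highest in siPVT1 replicate 1 and lowest in siPVT1 replicate 3, as were 30.3% of all 12038 genes with such a mean. The opposite order was found for 8 of the 29, and its share over all genes was not computed. Of the 13 that rose by adjusted p, 10 had the first order and WEE1 and FBXW11 the opposite one. The shares among all genes that rose were not computed either, so neither order is shown to be particular to these lists.

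**Figure D4:**
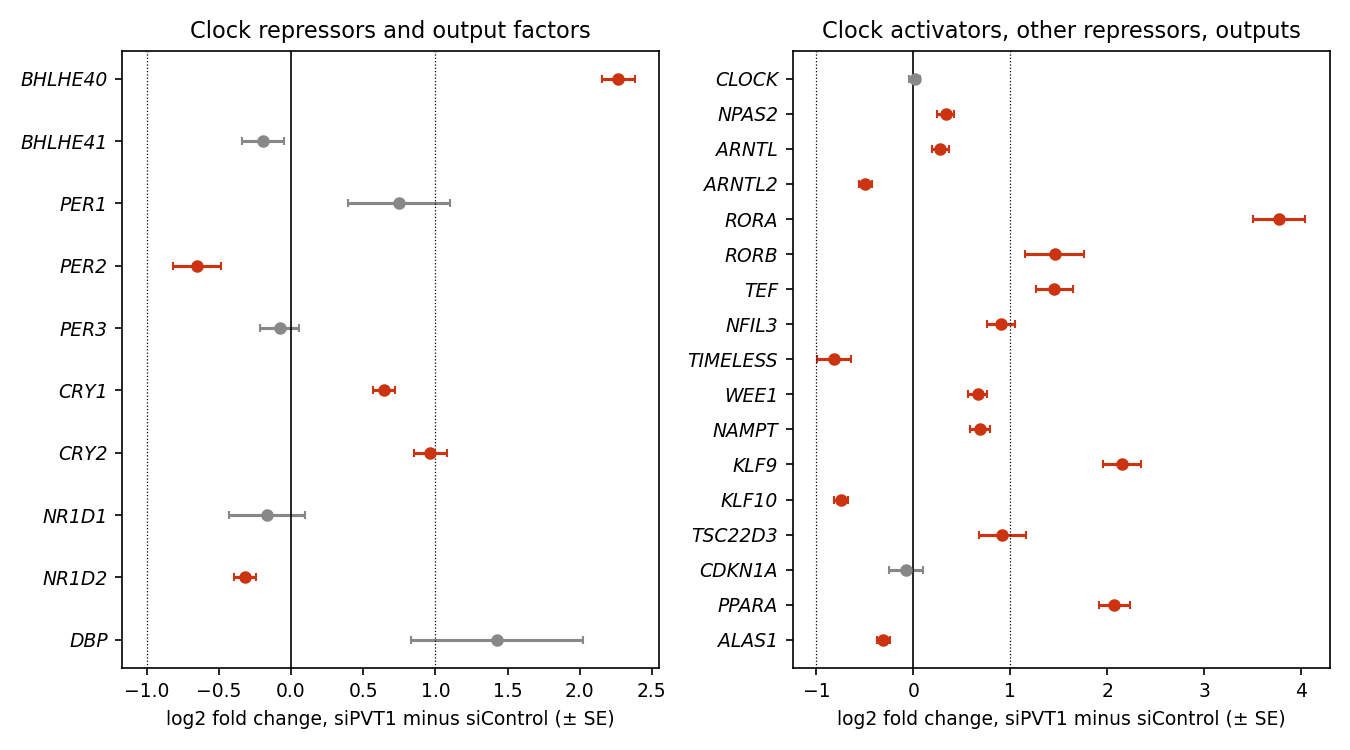
Log2 fold change (siPVT1 minus siControl, ± SE) from the edgeR fit for the 10 genes (left) and for tested clock activators, other repressors and outputs (right; HLF, RGS16 and CIART, with few counts, are not drawn). Red marks an adjusted p under 0.05, dotted lines the 2-fold threshold; BHLHE40 at 2.27 and RORA at 3.77 were the highest of each side.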

How the data were processed

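The authors prepared mRNA libraries, aligned single-end reads to the GENCODE transcriptome of GRCh38.p13 with STAR 2.7.3a, and counted with Salmon 0.14.1, per the labels and the study's methods. The deposited values are estimated counts, 1 row a gene symbol, in whole numbers and not normalized, and were used as given. Salmon divides shared reads by estimation, so counts of overlapping genes are uncertain. Depth was 28383171 to 35059576 counts per library.

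All 6 columns were matched to samples by the description label. TMM factors came from the whole table. Genes with at least 5 counts (scaled by DESeq2 size factors) in at least 3 libraries were tested with edgeR 4.0.16 (R 4.3.3), quasi-likelihood, siRNA as the only term, with Benjamini-Hochberg adjustment over all tested genes, after tests on simulated data. The SE is the absolute log2 fold change over the square root of F. Normalized counts are counts scaled to the mean effective library size. The alternatives were DESeq2 1.42.0, its size factors, total count scaling, no filter, filterByExpr, a replicate block, a test against a 2-fold change, each library left out and, chosen after seeing the data, TMM on tested genes.

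The members and lists were chosen with earlier results of these data known. The text names the 10 members, list genes past both thresholds, others where their role is described, PVT1, overlapping genes, and the 3 genes nearest to BHLHE40; some list genes are not reported here. Positions and lengths came from GENCODE v44 and promoter windows from RefSeq, matched by symbol for 10 of 10 genes.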

Additional observations from a re-analysis of the deposited data

How the results depend on the processing

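BHLHE40, CRY1, CRY2, PER2 and NR1D2 kept their direction and their side of the adjusted p threshold under 13 of 13 alternatives. The test against a 2-fold change is not among these 13 and is given below. The log2 fold changes of the 5 genes were 2.12 to 2.37, 0.50 to 0.67, 0.81 to 1.05, −0.85 to −0.48 and −0.47 to −0.27. Scaling by the total count moved the median of all genes to −0.148 and turned the direction of none of the 10 genes. The count of genes called higher, 1, was 2 with DESeq2 and with no filter (DBP added), and between 1 and 4 with 1 library left out, the 4 being BHLHE40, PER1, CRY2 and DBP without siPVT1 replicate 3. By adjusted p alone, 3 genes were higher, 4 with DESeq2 (DBP added), 5 with no filter, and between 3 and 5 with 1 library left out, and 2 were lower, 3 without siPVT1 replicate 1 (NR1D1 added). The log2 fold change of NR1D1 turned to 0.082 without siPVT1 replicate 3, and that of PER3 was 0.014 without siControl replicate 3 (with 1 library left out, −0.536 to 0.082 and −0.151 to 0.014). The difference in the log2 ratio of NR1D2 to NR1D1 was −0.068 and, with 1 library left out, lay between −0.332 and 0.179 (without siPVT1 replicate 1); the cause of these changes was not tested. BHLHE40 was the 1 gene that passed a test against a 2-fold change. With the replicate block, 1 gene was called higher and the log2 fold change of BHLHE40 was 2.25. Same-numbered libraries did not deviate together (correlations of −0.032, 0.021 and 0.0009), nor did every library correlate best with its own number, so the numbers were not taken to pair them. Depth limits DBP, HLF, HEY2 and RGS16, and the last 3 passed the filter on low counts through siControl alone.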
